A study of Homo sapiens and Mus musculus with 12 samples.

Results

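The 9 genes described here are regulators of the ganglionic eminences (GSX1, GSX2, MEIS2, ZNF503, ISL1, SP9 and NKX2-1) and the GABA synthesis genes GAD1 and GAD2. They were taken by symbol from the 60675 genes of the human count table, and their mouse orthologs by gene description from the 47729 genes of the mouse table, and all 9 were found in both. The human libraries came from cortical organoids of H9, an established embryonic stem cell line, collected at week 4 (day 28). The knockout group (KO, NOTCH2NL knockout, line code H9_KO_E5del42) and the WT group (line code H9_WT_E2del19) had 3 libraries each, with 5 to 10 organoids pooled per library. Per the series design, both lines, control included, came out of CRISPR/Cas9 work on H9. All human organoids, KO and WT, received SB431542, dorsomorphin and IWR-1-Endo, and the hedgehog pathway inhibitor cyclopamine at 1 µM until day 24. The mouse libraries came from organoids of the 46C embryonic stem cell line on day 6, in pools of 16, with 3 libraries from a stable line expressing the NOTCH2NL-Sh_T197I cDNA (N2NL) and 3 from a stable line with the empty vector (EV). Each group carries a single line code, so genotype and line cannot be told apart in human, nor vector and line in mouse. No label states whether pools came from separate cultures, and p-values measure the spread between pools, which may be technical.

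The ganglionic eminences are the ventral swellings of the embryonic forebrain. Their progenitors give rise to the projection neurons of the striatum and to most GABA-releasing interneurons of the cortex, while the dorsal forebrain, which cortical organoids are meant to model, makes glutamatergic neurons. Sonic hedgehog patterns the ventral forebrain, and NKX2-1 marks the medial eminence that depends on it. GABA is made from glutamate by glutamate decarboxylase, and GAD1 and GAD2 encode its isoforms in every GABA neuron, including those of midbrain, hindbrain and spinal cord.

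Human libraries held 15381409 to 16382938 counts and mouse libraries 16781742 to 20960391. With a floor of 3 counts, a gene at 0 in a library could still reach 0.195 CPM (counts scaled to library size) in human and 0.179 CPM in mouse, which covers counting error only. NOTCH2NL had 0 counts in each KO library and 4, 5 and 3 counts in WT 1 to 3, and the authors' deposited mouse table lists it at normalized values of 801, 709 and 740 in N2NL and at 0 in EV. On the second principal component of the human libraries (22.1% of the variance), KO 3 stood apart from KO 1 and KO 2, and WT 1 from WT 2 and WT 3.

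Of the 9 human genes, 8 passed the filter on low counts, and SP9 and ISL1 rose in KO organoids, at log2 fold changes of 3.90 and 3.25. The other 6 tested genes were not called at an adjusted p under 0.05 (edgeR quasi-likelihood test). The 2 called genes were higher in KO, a direction in which 2.31% of the 16956 tested genes were called, against 3.19% lower in KO and 5.5% in either direction. DESeq2 called 3 of the 9, with GAD2 as the third, and 7.13% of the genes it tested. An unadjusted p under 0.05 was reached by 3 of the 8 and by 22.8% of tested genes. For 3 genes, ISL1, SP9 and GAD2, every KO library lay above every WT library, as it did for 14.1% of tested genes. The median log2 fold change of the 8 genes was 0.68 with 6 above 0, against a median of -0.0047 and 49.3% above 0 over all tested genes. The genes were chosen with earlier results of these data known, so these counts and medians are a description only. In bulk tissue, more cells of a type and more RNA per cell cannot be told apart.

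**Figure D1:**
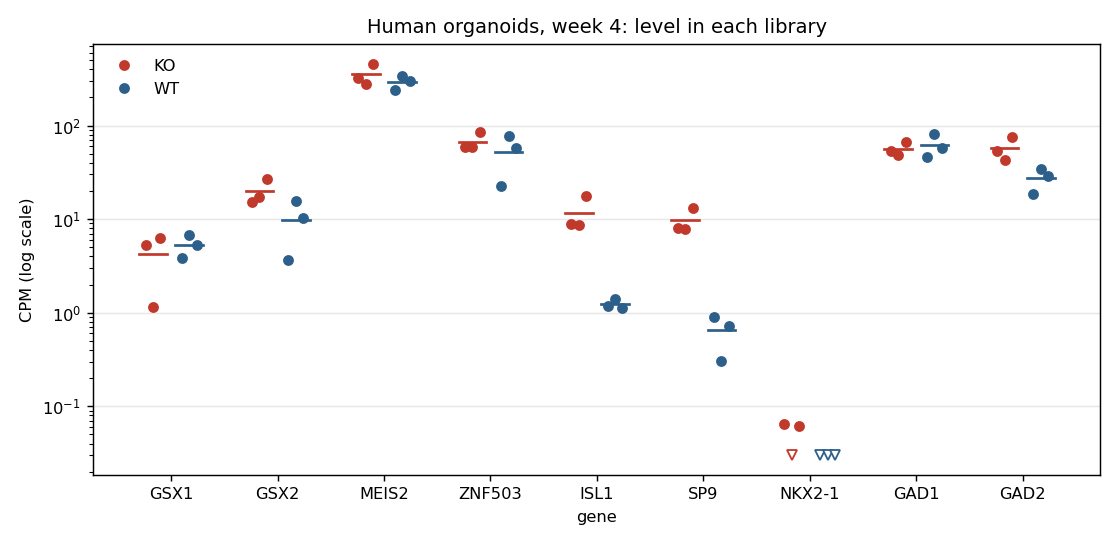
Level of each gene in each human library in CPM on a log scale, with KO libraries (red) left of WT libraries (blue), replicates 1 to 3 from left to right and a bar at the group mean; open triangles mark a count of 0. The KO and WT points of ISL1 and SP9 are about an order of magnitude apart, those of GAD2 are apart by less, and those of the other genes overlap or lie near 0.

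GSX1 and GSX2 encode homeobox factors of ventral progenitors, and in mouse Gsx2 specifies the lateral ganglionic eminence. GSX2 (ENSG00000180613; GRCh38 chromosome 4, 54099523 to 54102505, plus strand) stood at 15.2, 17.4 and 26.6 CPM in KO 1 to 3, against 3.63, 15.6 and 10.3 CPM in WT 1 to 3. The lowest KO library and WT 2 were nearly level, while WT 1 was far below all others. Its mean was 19.7 ± 6.05 CPM in KO and 9.84 ± 6.00 CPM in WT (SD, n = 3 each), and the log2 fold change was 1.00 ± 0.52, not called (edgeR adjusted p = 0.327). GSX1 (ENSG00000169840; chromosome 13, 27792643 to 27794768, plus strand) stood at 5.33, 1.14 and 6.24 CPM in KO, against 3.89, 6.76 and 5.31 CPM in WT. KO 2 lay below every other library, and the other 5 interleaved. Its log2 fold change was -0.33 ± 0.55 (edgeR adjusted p = 0.772), and 0.12 without KO 2.

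MEIS2 and ZNF503 are expressed in the lateral eminence and the striatum that forms from it. MEIS2 encodes a homeodomain cofactor of the TALE class, which is also expressed outside the eminences, and ZNF503 a zinc finger repressor. MEIS2 (ENSG00000134138; chromosome 15, 36889204 to 37101299, minus strand) was at 326, 276 and 460 CPM in KO and 240, 337 and 300 CPM in WT. The groups overlapped, with a log2 fold change of 0.28 ± 0.21 (edgeR adjusted p = 0.479). ZNF503 (ENSG00000165655; chromosome 10, 75397830 to 75401906, minus strand) was at 58.4, 58.4 and 85.9 CPM in KO and 22.8, 78.3 and 56.9 CPM in WT. WT 1 was lowest and WT 2 higher than 2 of the KO libraries. Its log2 fold change was 0.36 ± 0.48 (edgeR adjusted p = 0.716), and -0.0015 without WT 1. ZNF503 lies over ZNF503-AS2 on the opposite strand, which had 237, 273 and 434 counts in KO and 117, 366 and 280 in WT. No source used here gives the strand setting of the read counter, so how reads of the pair were divided is uncertain.

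ISL1 and SP9 act in cells that are leaving the cell cycle. ISL1 encodes a LIM homeodomain factor needed in mouse for striatal projection neurons of the direct pathway and for forebrain cholinergic neurons, and it is also expressed in motor neurons, sensory neurons and retina. ISL1 (ENSG00000016082; chromosome 5, 51383391 to 51394738, plus strand) had 137, 135 and 291 counts in KO and 18, 23 and 17 counts in WT, or 8.90, 8.58 and 17.8 CPM in KO and 1.17, 1.40 and 1.13 CPM in WT. KO 3 held 2.08 times the level of KO 2, the WT libraries were nearly level, and the groups were wide apart. ISL1 averaged 11.8 ± 5.23 CPM in KO and 1.23 ± 0.148 CPM in WT (SD, n = 3 each), and the log2 fold change was 3.25 ± 0.34 (edgeR adjusted p = 7.56e-04). It was called in all 6 fits that left out 1 library, at log2 fold changes of 2.82 to 3.43.

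SP9 encodes a zinc finger factor of the subventricular zone of the eminences, needed in mouse for striatal projection neurons of the indirect pathway and for cortical interneurons. SP9 (ENSG00000217236; chromosome 2, 174334946 to 174338492, plus strand) had 125, 123 and 216 counts in KO, against 14, 5 and 11 counts in WT. The levels were 8.12, 7.82 and 13.2 CPM in KO and 0.907, 0.305 and 0.730 CPM in WT. The lowest KO library was several times above the highest WT library. The log2 fold change was 3.90 ± 0.37 (edgeR adjusted p = 3.77e-04), from 9.72 ± 3.03 CPM in KO and 0.647 ± 0.310 CPM in WT (SD, n = 3 each). SP9 was called in all 6 fits that left out 1 library, at 3.56 to 4.23. It shares chromosome 2 with DLX1, DLX2 and GAD1, at gaps of 2245269, 2232046 and 3473795 bases.

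NKX2-1 (ENSG00000136352; chromosome 14, 36516392 to 36521149, minus strand) was read 1, 0 and 1 times in KO and 0 times in each WT library, so it was not tested and no fold is given. LHX6 and LHX8, which act downstream of NKX2-1 in the medial eminence, were also too low to be tested. LHX6 had 9, 4 and 3 counts in KO and 1, 0 and 0 in WT, and LHX8 had 12, 4 and 3 counts in KO and 0, 1 and 3 in WT. The defining factor of the medial eminence was thus at or near 0 in every human library, and its partners were detected at a few counts. Of 7 tested genes of the sonic hedgehog ligand and target list, 0 were called by edgeR (2 at an unadjusted p under 0.05, 1 by DESeq2). Their median log2 fold change was -0.16. Over all tested genes edgeR called 5.5%, 22.8% had an unadjusted p under 0.05, and DESeq2 called 7.13% of those it tested. The ligand gene SHH had 10, 5 and 5 counts in KO and 16, 21 and 26 in WT (log2 fold change -1.65 ± 0.45, edgeR adjusted p = 0.0586).

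GAD1 (ENSG00000128683; chromosome 2, 170813213 to 170861151, plus strand) stood at 53.4, 48.9 and 67.5 CPM in KO and 45.9, 81.8 and 57.4 CPM in WT. Its groups overlapped, and the highest of all 6 libraries was WT 2. The means were 56.6 ± 9.74 CPM in KO and 61.7 ± 18.3 CPM in WT (SD, n = 3 each), and the log2 fold change was -0.13 ± 0.22 (edgeR adjusted p = 0.789). GAD2 (ENSG00000136750; chromosome 10, 26216307 to 26304558, plus strand) stood at 53.5, 43.2 and 74.9 CPM in KO, against 18.5, 34.4 and 28.9 CPM in WT. Its libraries did not overlap, with KO 2 the lowest of KO and WT 2 the highest of WT. The means were 57.2 ± 16.2 CPM in KO and 27.2 ± 8.10 CPM in WT (SD, n = 3 each), and the log2 fold change was 1.07 ± 0.29. GAD2 was not called in edgeR (unadjusted p = 0.00854, adjusted p = 0.0895) and was called by DESeq2 (adjusted p = 1.42e-04), and the adjusted p ran from 1.42e-04 to 0.209 over the 12 alternatives. The authors' deposited table gives GAD2 a log2 fold change of 0.89 ± 0.19 (SE, adjusted p 1.52e-04), SP9 2.43 ± 0.24 (8.80e-22) and ISL1 2.16 ± 0.23 (7.28e-18). None of the other 6 genes is past 0.05 in it, and NKX2-1 has no adjusted p there. DESeq2 as run here gave 1.07, 3.92 and 3.26 for GAD2, SP9 and ISL1. The deposited fold changes are therefore not like for like with those given here, and the reason was not tested.

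The balance of the enzyme genes was read from their ratio. The ratio of GAD2 to GAD1, each in TPM, a level scaled by exon length, was 1.32, 1.17 and 1.46 in KO 1 to 3 and 0.530, 0.555 and 0.663 in WT 1 to 3. In TPM, GAD2 was the higher of the pair in every KO library and GAD1 in every WT library. The order in KO depends on the exon-union lengths used, 8242 bases for GAD1 and 6248 for GAD2. In raw counts KO 1 to 3 had 823, 680 and 1225 for GAD2 and 821, 769 and 1104 for GAD1. The lengths scale the ratio alike in all libraries, so the difference in ratio between groups does not depend on them. The ratio averaged 1.32 ± 0.149 in KO and 0.583 ± 0.0708 in WT (SD, n = 3 each; exact two-sided permutation test, p = 0.1, the smallest that 3 against 3 libraries allow). Within each group the ratio spread less than GAD2 itself did. An antisense transcript over GAD1, AC007405.2, had 38, 29 and 40 counts in KO and 12, 29 and 18 in WT, a small part of the counts of GAD1, which lay between 709 and 1343.

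**Figure D2:**
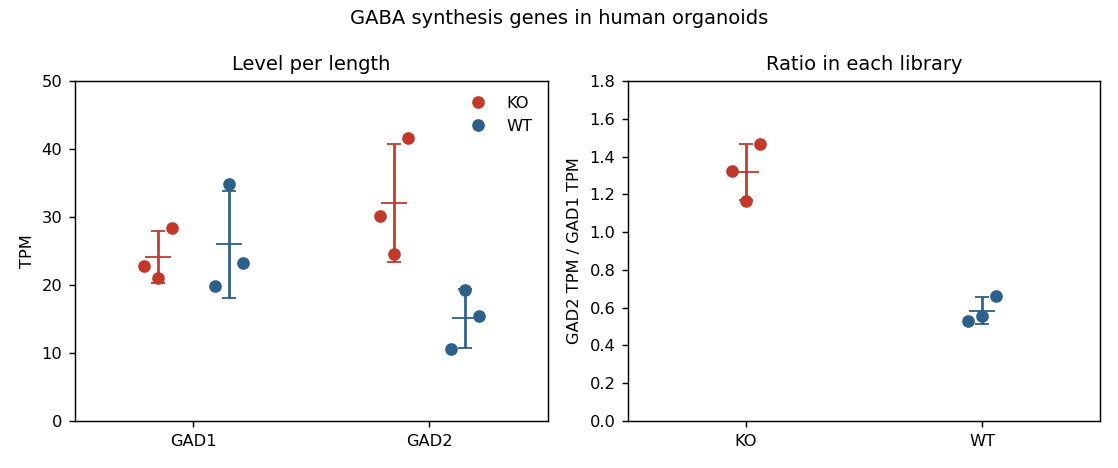
Left, GAD1 and GAD2 levels in TPM per human library, KO (red) left of WT (blue); right, the ratio of GAD2 TPM to GAD1 TPM in each library. Crosses and bars give the mean ± SD of 3 libraries; KO ratios lie between 1.17 and 1.46 and WT ratios between 0.530 and 0.663, with no overlap.

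The upstream sequences of ISL1, which rose, and GAD2, whose libraries did not overlap, are shown as the control regions of the genes that differed most and had an entry. They are the bases before the first annotated exon within the RefSeq promoter window (GRCh38.p14, plus strand), which runs 250 bases upstream of the start. Capitals would mark TAATTA (a homeodomain core), TGGGAA (a core of the Notch effector RBPJ) or GGGCGG (a GC box, bound by SP family factors) on either strand. Neither stretch holds any of them. The ISL1 stretch is chr5:51383198-51383390 and the GAD2 stretch chr10:26216122-26216306.
ISL1: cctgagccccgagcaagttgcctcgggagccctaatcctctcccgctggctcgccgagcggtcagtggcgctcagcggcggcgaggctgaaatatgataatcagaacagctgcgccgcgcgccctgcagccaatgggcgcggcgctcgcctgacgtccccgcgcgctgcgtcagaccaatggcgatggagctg
GAD2: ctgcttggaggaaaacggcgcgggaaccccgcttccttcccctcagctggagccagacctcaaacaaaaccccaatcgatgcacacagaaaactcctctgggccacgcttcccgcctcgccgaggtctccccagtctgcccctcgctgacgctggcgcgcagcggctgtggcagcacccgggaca
Over the whole windows, 8 of the 9 genes had an entry, with 12 windows in all. A gene was counted if any of its windows held the motif, whereas the shares over all windows are per window, so the values are not like for like. GGGCGG was found in 5 of the 8 (GAD2, GSX2, MEIS2, NKX2-1 and ZNF503), against 42.6% of 35116 windows. Parts of most windows lay within annotated exons of the same gene (GENCODE 29). The MEIS2 window with GGGCGG, the only GAD1 window and the second GAD2 window lay wholly within them. In the first GAD2 window GGGCGG lay past the printed stretch, within the first exon. TAATTA was found in 1, NKX2-1, against 4.35% of windows, and TGGGAA in 0, against 20.8%. These matches describe the letters of the windows only.

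Per length, MEIS2 had the highest level of the 9 genes in both human groups, at 115 ± 29.4 TPM in KO and 93.8 ± 15.1 TPM in WT (SD, n = 3 each). In KO the order was MEIS2, ZNF503, GSX2, GAD2, GAD1, ISL1, SP9, GSX1 and NKX2-1. Neighbours from GSX2 down to GSX1 overlapped between libraries, while MEIS2, ZNF503 and GSX2 did not. In WT the order was MEIS2, ZNF503, GAD1, GSX2, GAD2, GSX1, ISL1, SP9 and NKX2-1, with overlap of neighbours down to GSX1 and none below it. ISL1 stood at 14.3 ± 6.17 TPM in KO, near GAD1 at 24.1 ± 3.84 TPM, and at 1.49 ± 0.205 TPM in WT, well under GSX1 at 11.1 ± 2.98 TPM. SP9 stood at 13.3 ± 3.99 TPM in KO and at 0.879 ± 0.430 TPM in WT.

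The genes also varied together between libraries of a group. KO 3 held the highest KO level of all 8 tested genes, while over all tested genes KO 3 was highest of its group for 35.4%. KO 2 was the lowest of KO for 6 of the 8 (37.4% of all tested genes). WT 2 was the highest of WT for 7 of the 8 (35.4% of all tested genes), all but SP9, and WT 1 the lowest of WT for 6 (37.4%), all but ISL1 and SP9. The widest spread within a group was in GSX1, at 5.46 times between KO 3 and KO 2, followed by GSX2 and ZNF503 at 4.30 and 3.43 times between WT 2 and WT 1. ISL1 varied 2.08-fold in KO and 1.24-fold in WT.

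SP9 ran the other way in WT, where WT 2 was its lowest library. DLX1, DLX2, DLX5 and DLX6, homeobox genes of the eminences, were also lowest in WT 2. DLX2 had 43.3, 41.2 and 69.6 CPM in KO and 1.49, 0.792 and 1.73 CPM in WT, and DLX6 had 29.3, 29.7 and 45.5 CPM in KO and 3.24, 0.305 and 4.25 CPM in WT. SP9 and these 4 genes were thus low in WT 2, the library in which GSX1, GSX2, ZNF503, GAD1 and GAD2 were at their WT highest.

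**Figure D3:**
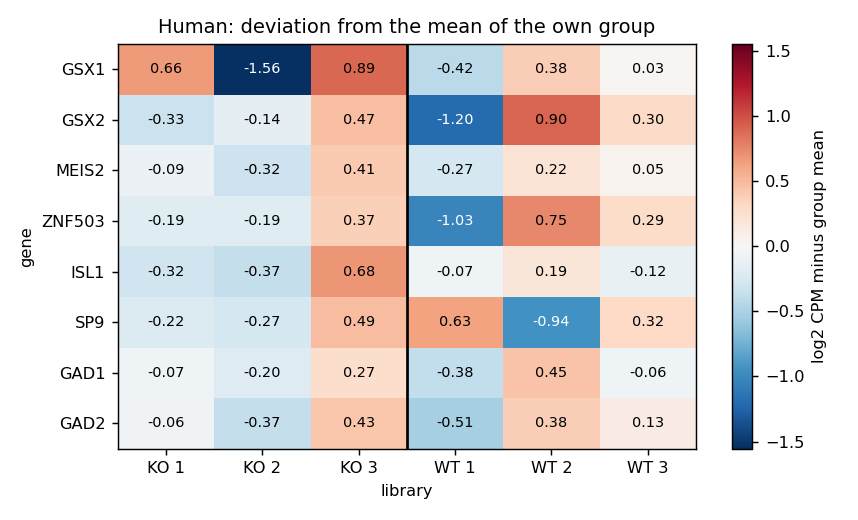
Deviation of each tested gene in each human library from the mean of its own group, in log2 CPM, with KO libraries left of WT libraries; red is above and blue below the group mean, and the value is printed in each cell. KO 3 is above its group mean for all 8 genes, WT 2 for all but SP9, and WT 1 below it for all but SP9.

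Markers of other GABA neurons followed a similar order. Midbrain, hindbrain and spinal GABA neuron markers (11 genes) summed to 131, 64.4 and 149 CPM in KO 1 to 3 and to 137, 294 and 204 CPM in WT 1 to 3, so KO 2 was the lowest and WT 2 the highest of the 6, as for GSX1. Within each group the sums had the library order of GAD1. Of its 6 tested genes, the transcription factor gene HELT rose (35, 41 and 58 counts in KO against 1, 1 and 2 in WT, edgeR adjusted p = 4.17e-04) and 0 fell, with a median log2 fold change of -0.76. TAL1 and GATA2, which specify midbrain and spinal GABA neurons, were each at 0 to 5 counts per library. The vesicular GABA transporter gene SLC32A1, shared by all GABA neurons, stood at 38.8, 27.1 and 45.6 CPM in KO and 21.9, 50.0 and 37.7 CPM in WT. It took the library order of GAD1 in both groups, at a log2 fold change of 0.02 ± 0.34 (edgeR adjusted p = 0.979). The part of these cells in the levels of GAD1, GAD2, GSX1, GSX2 and ZNF503 was not tested.

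For ISL1, the summed markers of its other sites of expression overlapped between the groups. Motor neuron markers (6 genes, 3 tested) summed to 27.6, 23.4 and 75.9 CPM in KO and to 49.1, 124 and 90.8 CPM in WT. Their defining genes LHX3 and MNX1 were under 1 CPM in every library, and PRPH, an intermediate filament gene of peripheral and motor neurons, fell (1.30, 1.02 and 1.10 CPM in KO against 5.57, 12.2 and 7.17 CPM in WT; log2 fold change -2.87 ± 0.34, edgeR adjusted p = 0.00134). Retina markers (9 genes, 6 tested) summed to 94.2, 55.7 and 149 CPM in KO and to 115, 360 and 257 CPM in WT. Placode and sensory neuron markers summed to 143, 121 and 257 CPM in KO and to 144, 255 and 226 CPM in WT. Of 6 tested, 0 were called by edgeR or by DESeq2. An unadjusted p under 0.05 was reached by 0, against 22.8% of all tested genes. Most of the motor sum came from genes other than LHX3, MNX1 and PRPH. KO 3, where ISL1 was highest, also had the highest KO sum of the motor, retina and placode lists. ISL1 was called without KO 3. The part of these cells in the level of ISL1 was not tested.

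Cholinergic genes, which ISL1 governs in the forebrain and spinal cord, had 0 of 4 called by edgeR (3 at an unadjusted p under 0.05, 1 by DESeq2). All 4 log2 fold changes were below 0, with a median of -1.25. The shares over all tested genes were 5.5% called by edgeR, 22.8% at an unadjusted p under 0.05 and 7.13% by DESeq2. The vesicular acetylcholine transporter gene SLC18A3 had 3, 6 and 16 counts in KO and 20, 63 and 32 in WT (edgeR adjusted p = 0.0598). Hypothalamus markers, a further site of ventral forebrain homeobox genes, had 3 tested genes. DBX1, a homeobox gene of that list, fell (1, 2 and 5 counts in KO, 15, 15 and 25 in WT; log2 fold change -2.75 ± 0.57, edgeR adjusted p = 0.0242; called in 3 of 6 fits without 1 library), and NKX2-2 and NKX2-4 had no count.

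Some other regulators of the eminences were also higher in KO. The list was chosen with earlier results of these data known, so its counts are a description only. Over all tested genes 2.31% were called higher. Of 19 listed, 15 were tested, 6 rose and 0 fell, with a median log2 fold change of 1.23 and 13 above 0. The 6 were DLX1, DLX2, DLX5, DLX6, VAX1 and SIX3, of which DLX2, DLX5 and SIX3 were called in all 6 fits that left out 1 library, DLX1 in 4, and DLX6 and VAX1 in 1 each. The subventricular zone gene SP8, a relative of SP9, stood at 30.3, 33.4 and 30.3 CPM in KO and 20.5, 9.99 and 9.69 CPM in WT. It was not called (log2 fold change 1.23 ± 0.28, edgeR adjusted p = 0.0535).

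Among the neurons that descend from the eminences, striatal markers had 4 of 15 tested genes rise, 0 fall and 11 not called. Their median log2 fold change was 0.19, with 10 above 0. Over all tested genes 2.31% were called higher and 3.19% lower. The marker lists were also chosen with earlier results of these data known, so their counts are a description only. The 4 that rose were EGR3 (2.47 ± 0.34, edgeR adjusted p = 0.00353), BCL11B (1.23 ± 0.17, 0.00662), PBX3 (0.83 ± 0.16, 0.0278) and FOXP2 (1.46 ± 0.30, 0.0400), called without 1 library in 6, 5, 3 and 2 of 6 fits. BCL11B and FOXP2, which mark striatal projection neurons, are also genes of deep cortical neurons, and EGR3 is also induced by activity. Cortical interneuron markers had 2 of 16 tested genes rise, 1 fall and a median of 0.24. The neuropeptide gene somatostatin (SST) stood at 56.5, 56.7 and 90.6 CPM in KO and 23.9, 17.9 and 24.2 CPM in WT (1.63 ± 0.22, edgeR adjusted p = 0.00717, called in all 6 such fits). KO 3 was again the highest KO library. Neuropeptide Y (NPY) had 20, 16 and 27 counts in KO and 5, 0 and 2 in WT (3.08 ± 0.66, edgeR adjusted p = 0.0266; called in 1 such fit). CXCR4, the chemokine receptor of migrating interneurons, fell to 76.3, 61.5 and 87.2 CPM in KO, against 98.0, 135 and 122 CPM in WT (-0.66 ± 0.15, edgeR adjusted p = 0.0428; called in 2 such fits).

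The other GABA genes were described by list. As a background, edgeR called 5.5% of all tested genes, 22.8% had an unadjusted p under 0.05, and DESeq2 called 7.13%. The list of GABA packaging, uptake and breakdown had 0 of 7 called by edgeR (1 at an unadjusted p under 0.05, 0 by DESeq2) and a median log2 fold change of -0.09. For 3 of the 7 every KO library lay below every WT library and for 0 above, against 14.8% and 14.1% of all tested genes. Of 11 tested GABA A receptor subunit genes, GABRA3 rose (0.52 ± 0.11, edgeR adjusted p = 0.0216; called in 3 of 6 fits without 1 library) and 10 were not called. Markers of the cortical excitatory lineage had 0 of 13 called by edgeR (1 at an unadjusted p under 0.05, 1 by DESeq2) and summed to 1098, 1195 and 583 CPM in KO and to 1408, 741 and 949 CPM in WT. KO 3 and WT 2, the libraries in which most of the 9 genes were highest, had the lowest excitatory sums of their groups. Thyroid and lung endoderm, and cardiac mesoderm, where NKX2-1, ISL1 and others are also used, had 1 tested gene each and 0 called by edgeR or DESeq2 (at an unadjusted p under 0.05, 0 for endoderm and 1 for mesoderm), with sums of at most 2.86 and 14.2 CPM in a library.

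The genes whose level followed ISL1 most closely over the 6 human libraries, among 12236 candidates, were PDE5A, ZNF780B and COG4 (Pearson r of log2 CPM 0.998, 0.996 and 0.993). Those closest to SP9 were TTLL7, CTA-390C10.10 and CRYZ (0.999, 0.998 and 0.998). These values share 6 libraries and mostly the step between groups. PDE5A had 21.0, 19.2 and 30.5 CPM in KO and 7.91, 8.35 and 7.90 CPM in WT, which repeats the high KO 3 and level WT of ISL1. CRYZ had 28.7, 26.9 and 32.4 CPM in KO and 14.1, 9.45 and 12.7 CPM in WT, which repeats the low WT 2 of SP9.

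In mouse organoids, 8 of the 9 genes passed the filter and 0 were called in N2NL against EV by edgeR (2 at an unadjusted p under 0.05, against 7.45% of tested genes). DESeq2 gave an adjusted p to MEIS2 and ZNF503 alone among the 8 and called neither. Of all 16682 tested genes edgeR called 2 (0.012%), both higher in N2NL, and DESeq2 called 30 (0.347% of those it tested). For GAD1 among the tested genes, and for SP9, which was not tested, every N2NL library lay above every EV library, as it did for 7.39% of tested genes. The median log2 fold change of the 8 was 0.07, with 4 above 0, against -0.0059 and 48.3% over all tested genes.

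**Figure D4:**
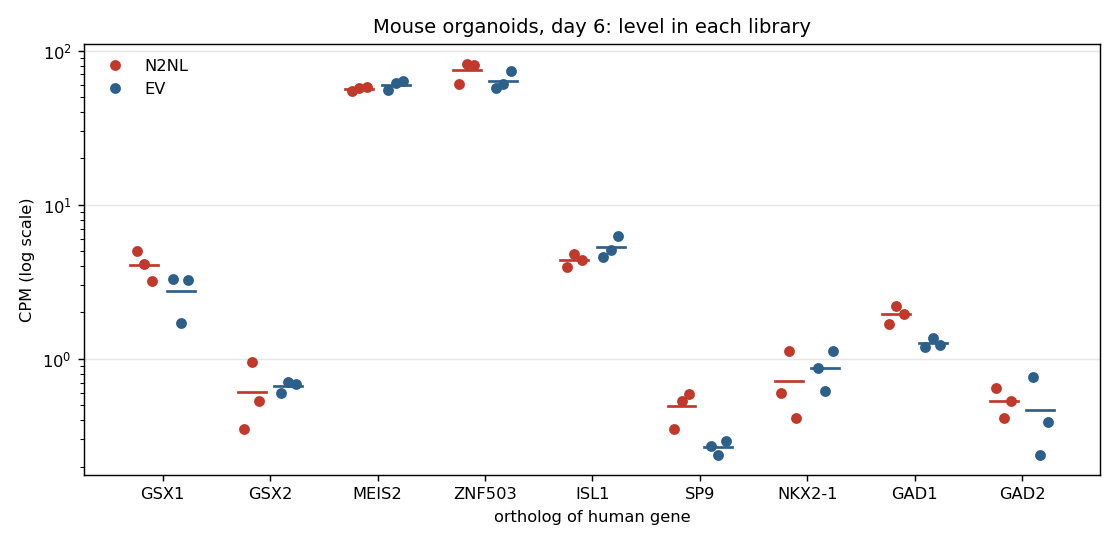
Level of each ortholog in each mouse library in CPM on a log scale, N2NL (red) left of EV (blue), replicates 1 to 3 from left to right, with a bar at the group mean. The groups overlap for every gene except GAD1 and SP9, both of which lie at or below 2.20 CPM.

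Day 6 mouse organoids held little of most of these genes. Only the orthologs of MEIS2 (ENSMUSG00000027210) and ZNF503 (ENSMUSG00000039081) were above 10 CPM. The MEIS2 ortholog stood at 55.0, 57.4 and 57.6 CPM in N2NL and 55.1, 61.4 and 63.4 CPM in EV, a log2 fold change of -0.08 ± 0.08 (edgeR adjusted p = 0.877). The ZNF503 ortholog stood at 61.1, 82.4 and 80.7 CPM in N2NL and 57.5, 60.6 and 73.3 CPM in EV, a log2 fold change of 0.23 ± 0.13 (edgeR adjusted p = 0.743). Both overlapped between groups, and both were lowest in replicate 1 of either group.

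Of the early patterning genes, the GSX1 ortholog (ENSMUSG00000053129) stood at 4.98, 4.10 and 3.20 CPM in N2NL and 3.31, 1.71 and 3.23 CPM in EV. N2NL 3 fell within the EV range (log2 fold change 0.59 ± 0.26, unadjusted p = 0.0408, edgeR adjusted p = 0.658). The GSX2 ortholog (ENSMUSG00000035946) had 7, 16 and 9 counts in N2NL and 11, 15 and 14 in EV, and overlapped. The ISL1 ortholog (ENSMUSG00000042258) stood at 3.94, 4.81 and 4.38 CPM in N2NL and 4.56, 5.12 and 6.31 CPM in EV, with a log2 fold change of -0.29 ± 0.18 (edgeR adjusted p = 0.784). Thus ISL1, which rose in human KO organoids, overlapped between the mouse groups. The SP9 ortholog (ENSMUSG00000068859) had 7, 9 and 10 counts in N2NL and 5, 5 and 6 in EV, too few to be tested. The NKX2-1 ortholog (ENSMUSG00000001496) had 12, 19 and 7 counts in N2NL and 16, 13 and 23 in EV, so it was detected in every mouse library, unlike in human, and the groups overlapped (log2 fold change -0.29 ± 0.41, edgeR adjusted p = 0.916). The human and mouse contrasts differ in species, age, line and direction of the NOTCH2NL change, and no test across them was made.

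Of the enzymes, the GAD1 ortholog (ENSMUSG00000070880) had 34, 37 and 33 counts in N2NL and 22, 29 and 25 in EV, or 1.69, 2.20 and 1.95 CPM in N2NL and 1.19, 1.37 and 1.22 CPM in EV. These did not overlap, and the log2 fold change of 0.61 ± 0.25 was not called (unadjusted p = 0.0285, edgeR adjusted p = 0.625). The GAD2 ortholog (ENSMUSG00000026787) had 13, 7 and 9 counts in N2NL and 14, 5 and 8 in EV, with overlap (0.24 ± 0.47, edgeR adjusted p = 0.950). Of the 15 other eminence regulators tested in mouse, 0 were called by edgeR, with a median log2 fold change of 0.03. An unadjusted p under 0.05 was reached by 4 of them, against 7.45% of tested genes. DESeq2 called none of those it gave an adjusted p. None of the 9 genes is past an adjusted p of 0.05 in the authors' deposited mouse table, which gives 148 genes past it, but GAD1, GAD2, GSX2, NKX2-1 and SP9 have no adjusted p there.

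**Figure D5:**
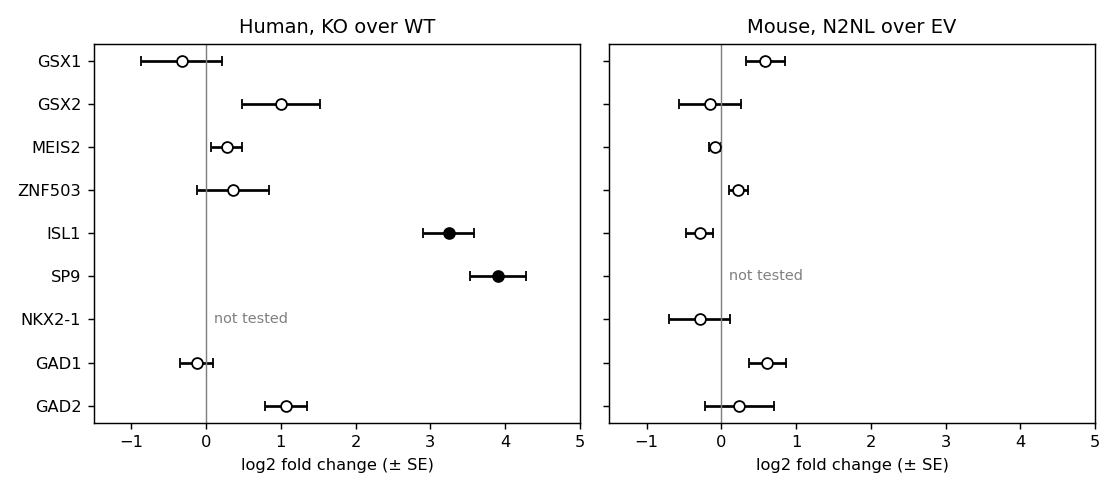
Log2 fold change of each gene with its approximate standard error, KO over WT in human (left) and N2NL over EV in mouse (right); filled points were called by edgeR at an adjusted p under 0.05. In human ISL1 and SP9 lie above 3 and are the 2 filled points, and in mouse every point is open and between -0.29 and 0.61.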

How the data were processed

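RNA was poly(A)-selected and made into strand-specific Ion libraries, per the labels' protocols. The authors deposited raw read counts per Ensembl gene for each species, and tables of their own comparison with p-values and normalized values per library, treated here as a score; the human table also holds the authors' log2 fold changes. Per the submitters' processing notes, the builds were GRCh38/hg38 and GRCm38/mm10, and the tools, listed without roles, were HTSeq 0.6.1p1, STAR 2.4.0, Trimmomatic 0.36, DESeq2 2.11.39 and Bowtie2 2.3.3.1. In the human table the normalized columns of replicates 1 and 3 track raw columns 3 and 1 in both groups; replicate numbers here are those of the raw columns. Summary lines of the mouse counter, which name no gene, were left out (of all reads, 5.77% to 6.50% outside genes, 0.769% to 0.905% ambiguous, 4.42% to 5.65% of low quality, 26.6% to 33.7% aligned to several places).

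Counts were tested per species over the whole table with edgeR 4.0.16 in R 4.3.3 (filterByExpr, TMM scaling, robust quasi-likelihood F test, group as the only term) and Benjamini-Hochberg adjustment, with calls at 0.05. CPM use TMM factors. The ± of a log2 fold change is its absolute value over the root of F, an approximate standard error. TPM used exon-union lengths of GENCODE 29, which holds 57055 of the 60675 human genes. On simulated data with 200 changed genes, 90% of those changed by 1 on the log2 scale were recovered in human (16736 genes) and 96% in mouse (16490 genes). There were 12 false calls in human and 7 in mouse. The simulation gave all genes of a species the same dispersion and changed only genes with a mean of at least 1 CPM. It checks that the fit works and does not give the power for the genes described here. Alternatives were library-size scaling, DESeq2 size factors, DESeq2 1.42.0, no filter on low counts, a replicate block and leaving out each library.

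The members and the gene lists were chosen with earlier results of these data known. Named genes were every member, every called gene of the other lists and, for called members the 3 genes of highest correlation with a mean of at least 5 CPM. SHH, LHX6, LHX8, SP8, SLC32A1, SLC18A3, TAL1, GATA2, LHX3, MNX1, NKX2-2 and NKX2-4 were named outside this rule, after their values were seen. Of 172 list genes, 168 were matched in mouse from the gene descriptions of the authors' deposited table. Promoter windows are from RefSeq (GRCh38.p14). Some list genes are not reported here.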

Additional observations from a re-analysis of the deposited data

How the results depend on the processing

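ISL1 and SP9 were called under all 12 human alternatives, with adjusted p-values of at most 0.0205 and 0.0108, and 2 of the 9 genes were called in each fit that left out 1 library. GAD2 kept its direction in all 12 and was called in 3: by DESeq2, with no filter on low counts (edgeR adjusted p = 0.00366), and with WT 1 and KO 3 both left out (log2 fold change 0.61, edgeR adjusted p = 0.0115), an alternative chosen after seeing the data. In mouse 0 of the 9 were called under any alternative, though DESeq2 gave an adjusted p to MEIS2 and ZNF503 alone. Same-numbered libraries deviated together at correlations of 0.216, -0.113 and 0.126 in human and 0.143, 0.016 and -0.005 in mouse. These small values do not settle whether the numbers pair the libraries. In mouse, replicate 1 of both groups was the lowest for the same 5 of the 8 tested genes. On the first principal component N2NL 1 and EV 1 stood at 19.1 and 22.0, and the other mouse libraries between -20.5 and -1.04. With the replicate block ISL1 and SP9 were the 2 genes called, GAD2 stood at 1.08 (edgeR adjusted p = 0.0960), and mouse calls over all genes numbered 21.

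Signs that turned belonged to genes that were not called. Without 1 library the log2 fold change ran from -0.30 to 0.14 for GAD1 (above 0 without WT 2), from -0.72 to 0.12 for GSX1 (above 0 without KO 2) and from -0.0015 (without WT 1) to 0.77 for ZNF503. In mouse it ran from -0.0805 (without EV 2) to 0.77 for GAD2 and from -0.61 to 0.15 (without N2NL 1) for GSX2. With WT 1 and KO 3 both left out, ZNF503 stood at -0.21 and MEIS2 at -0.0802. The cause was not tested. The 932 human genes called became 2155 with no filter, 2041 without WT 1 and KO 3, and 224 to 1440 without 1 library. The 2 mouse genes became 30 by DESeq2, 117 with no filter and 0 to 17 without 1 library. NKX2-1 in human and SP9 in mouse had too few counts to be tested, and the part of depth in this was not tested.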
